A study of Homo sapiens with 12 samples.

Results

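Tropomyosins and the proteins that work beside them on actin filaments are described here in 2 renal carcinoma lines after knockdown of NUF2. The set comprised 10 genes of the 58302 genes listed in each library: the 4 tropomyosins TPM1, TPM2, TPM3 and TPM4, the caldesmon gene CALD1, the transgelins TAGLN and TAGLN2, the non-muscle alpha-actinins ACTN1 and ACTN4, and the myosin light chain gene MYL9. They were chosen by gene name. TPM4 was taken for its large increase after knockdown in these same libraries, so its values are a description and carry no test in that contrast, and the other 9 were taken as tropomyosins and actin partners. The study transfected 769-P and ACHN cells, labelled as clear cell renal cell carcinoma (ccRCC) cells, with siRNA against NUF2 (si-NUF2, which the study used as a mixture of siRNAs) or with a negative control siRNA (si-NC), and extracted total RNA after 48 h. Each line and siRNA had 3 replicates, which makes 4 groups and 12 libraries. The values were FPKM, fragments scaled by exon length and by the depth of the library, so levels of different genes are given per length. Nothing in the labels says that replicates were separate cultures, so p-values measure the spread between these libraries, which may be technical. Each line is 1 established culture, and a knockdown by siRNA leaves some of the transcript.

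Tropomyosins are coiled-coil proteins that lie end to end along actin filaments and decide which other proteins can bind there. Each of the 4 genes gives several isoforms through alternative promoters and exons, and a value per gene does not separate them. Caldesmon and the transgelins also bind along the filament, the alpha-actinins crosslink neighbouring filaments, and MYL9 is a regulatory light chain of the myosin II motor that pulls on them. In epithelial cells these proteins meet in stress fibres, the contractile bundles anchored at focal adhesions, and several of their genes are known targets of serum response factor (SRF), which binds the CArG box.

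The libraries held between 29245492 and 38866455 reads, recovered from the FPKM. The targeted gene was checked first. NUF2, a kinetochore protein, fell from 18.3 ± 0.951 to 3.68 ± 0.602 FPKM in 769-P (SD, n = 3), to 20.1% of si-NC, with an adjusted p of 0.00129. In ACHN NUF2 was at 13.8 ± 1.94 FPKM with si-NC and 3.85 ± 1.53 with si-NUF2 (SD, n = 3), 27.9% of si-NC, with an adjusted p of 0.224 in the fit of that line without the pairing of replicates, 0.0122 with the pairing, and 0.0109 when all 12 libraries were fitted together. Of the renal carcinoma markers, PAX8, KRT8, KRT18 and VIM were all at 35.8 FPKM or more in every library, whereas CA9 did not exceed 0.121 FPKM and NDUFA4L2 did not exceed 4.08 FPKM in any library of either line. The defining genes of muscle were near 0: MYH11 stayed at or below 0.104 FPKM, DES at or below 0.0380 FPKM and MYOD1 was listed at 0 in every library. All 5 endothelial and all 5 leukocyte markers were below 0.5 FPKM in every library. In the fibroblast list 5 of 6 markers were below 0.5 FPKM in every library, and the sixth, COL1A1, reached 3.87 FPKM. The summed smooth muscle markers came almost wholly from SMTN (smoothelin) and ran from 9.57 to 14.7 FPKM with si-NC and from 13.5 to 17.9 FPKM with si-NUF2 in 769-P, and from 6.33 to 7.01 and from 8.04 to 8.70 FPKM in ACHN. Their part in the results below was not tested.

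TPM4 (chr19:16067021-16103005, plus strand, GRCh38 as all positions here), a cytoskeletal tropomyosin of non-muscle cells, was the member with the largest difference. In 769-P the si-NUF2 libraries had TPM4 values of 54.9, 39.4 and 46.0 FPKM, against 14.8, 12.6 and 12.8 FPKM with si-NC. In ACHN they had 27.8, 14.5 and 17.6 FPKM against 9.10, 6.15 and 8.38 FPKM. In RNA from whole cultures, more cells with a transcript and more transcript per cell cannot be told apart. The groups did not overlap in either line, and the lowest si-NUF2 library of 769-P still had well over the highest si-NC value. The difference on the scale of log2(FPKM + 0.1) was 1.80 ± 0.134 (SE) in 769-P and 1.31 ± 0.275 in ACHN. Ordered by fold change, TPM4 stood at rank 30 of the 14155 genes tested in 769-P and at rank 36 of 15116 in ACHN. Within same-numbered libraries the log2 differences of 769-P were 1.90, 1.64 and 1.85, and those of ACHN were 1.63, 1.23 and 1.08.

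Promoter sequences were available from RefSeq (GRCh38.p14) for 8 of the 10 genes, with 21 promoters in all, each running from 250 bases before to 50 bases after a gene start. TAGLN and MYL9 were not among them. They were searched on both strands for 4 motifs, of which the first was the CArG box. A CArG box stood in 2 of the 21 promoters, 1 of the 3 of TPM4 and 1 of the 4 of ACTN1, and in 1.29% of all 35116 promoters of this length. The letters GGAATG, part of the TEAD motif, stood in 3 of the 21 (14% of all promoters). The AP-1 letters TGANTCA stood in 4 (7.71%), and the GC box GGGCGG stood in 14 (45%). The 2 promoters with a CArG box are shown because SRF is a well known regulator of such genes, and the box is in capitals. That of TPM4 lies at chr19:16067288-16067587 on the plus strand, with the box beginning 173 bases before the start, and that of ACTN1 lies at chr14:68977517-68977816 on the minus strand, with the box 171 bases before the start. The only listed promoter of TPM1, at chr15:63048239-63048538 on the plus strand, is set beside them because the log2 differences of TPM1 had opposite signs in the 2 lines. It held no CArG box, and its 2 overlapping GGGCGG are in capitals. The start of this TPM1 promoter, at 63048489, lies inside the gene, which begins at 63042632. No promoter at that beginning was listed, so it was not searched for a CArG box. The start in the TPM4 promoter with a box, at 16067538, also lies inside its gene, which begins at 16067021. That of the ACTN1 promoter with a box, at 68977566, lies inside ACTN1, which begins at 68979440 on the minus strand. The listed ACTN1 promoter nearest to the beginning of ACTN1, with its start at 68979302, held no CArG box. A match says only that the letters are present.
TPM4 promoter: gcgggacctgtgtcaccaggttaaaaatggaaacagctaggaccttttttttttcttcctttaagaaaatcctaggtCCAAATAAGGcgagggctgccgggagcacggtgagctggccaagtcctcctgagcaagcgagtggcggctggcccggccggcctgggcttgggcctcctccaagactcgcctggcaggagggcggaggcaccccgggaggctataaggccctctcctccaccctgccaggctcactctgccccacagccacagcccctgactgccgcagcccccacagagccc
ACTN1 promoter: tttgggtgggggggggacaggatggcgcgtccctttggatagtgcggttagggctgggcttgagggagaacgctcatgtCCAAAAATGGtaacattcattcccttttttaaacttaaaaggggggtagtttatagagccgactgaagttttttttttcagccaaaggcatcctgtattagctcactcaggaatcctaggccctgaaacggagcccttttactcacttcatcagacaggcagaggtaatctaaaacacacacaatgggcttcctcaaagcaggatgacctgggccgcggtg
TPM1 promoter: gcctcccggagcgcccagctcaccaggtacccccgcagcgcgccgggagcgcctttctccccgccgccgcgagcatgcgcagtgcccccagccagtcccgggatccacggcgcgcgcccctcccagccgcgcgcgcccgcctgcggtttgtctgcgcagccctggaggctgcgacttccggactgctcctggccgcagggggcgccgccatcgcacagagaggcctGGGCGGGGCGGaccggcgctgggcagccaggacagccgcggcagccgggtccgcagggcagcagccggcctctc

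**Figure D1:**
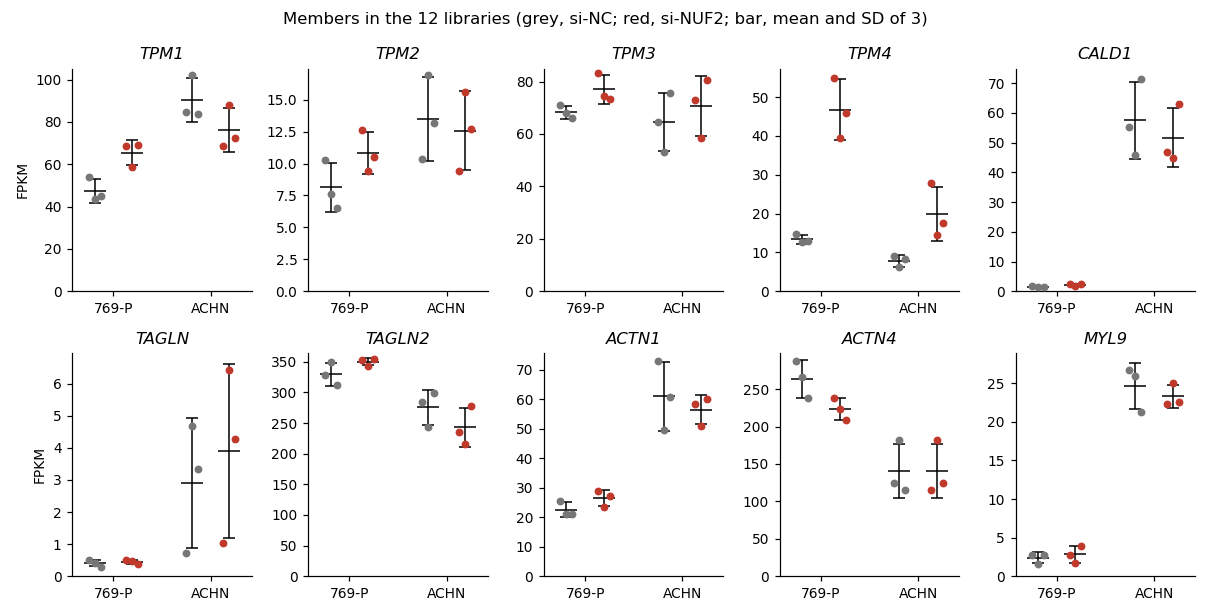
FPKM of the 10 members in the 12 libraries, 1 panel a gene with its own axis from 0, with si-NC in grey and si-NUF2 in red and bars for the mean and SD of 3 libraries. TPM4 is the only panel in which si-NUF2 and si-NC values are apart in both lines, and CALD1, MYL9 and TAGLN are low in 769-P.

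TPM1 (chr15:63042632-63071915, plus strand), which gives long tropomyosins of stress fibres, rose in 769-P and did not pass the test in ACHN without the block. In 769-P its values were 68.6, 58.8 and 69.2 FPKM with si-NUF2 against 54.1, 43.5 and 45.0 FPKM with si-NC. The groups did not overlap, and TPM1 rose by 0.48 ± 0.112 (SE) on the log2 scale, with an adjusted p of 0.0424. In ACHN TPM1 had 68.5, 87.9 and 72.4 FPKM with si-NUF2 against 84.8, 102.2 and 83.6 FPKM with si-NC, a log2 fold change of -0.23 ± 0.137 that did not pass the test, with an adjusted p of 0.789. There the groups overlapped, because the highest si-NUF2 library exceeded the 2 lower si-NC libraries, but in each same-numbered pair the si-NUF2 library was the lower. With the replicate number as a block the adjusted p of TPM1 was 0.00993 in 769-P and 0.034 in ACHN. The call in 769-P was lost when any library but si-NC replicate 1 was left out, with adjusted p-values up to 0.129, and in the fit of all 12 libraries (adjusted p = 0.0645).

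TPM2 (chr9:35681992-35690121, minus strand), which in muscle encodes beta-tropomyosin, was the least abundant of the 4 in 769-P. It had 12.6, 9.41 and 10.5 FPKM with si-NUF2 and 10.3, 7.64 and 6.52 FPKM with si-NC for 769-P. The values overlapped, and the log2 difference of 0.44 ± 0.186 had an adjusted p of 0.184 without and 0.029 with the replicate block. In ACHN TPM2 had 9.43, 15.6 and 12.7 FPKM with si-NUF2 and 10.4, 16.9 and 13.2 FPKM with si-NC. The spread there was between replicate numbers, since replicate 2 was the highest and replicate 1 the lowest in both groups, and the log2 difference was -0.083 (95% interval -0.68 to 0.52).

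TPM3 (chr1:154155304-154194648, minus strand), a tropomyosin with broad expression in non-muscle cells, differed by the least of the 4 in 769-P. It had 83.4, 74.5 and 73.3 FPKM with si-NUF2 and 71.0, 67.9 and 66.0 FPKM with si-NC for 769-P, which did not overlap. The log2 difference of 0.18 ± 0.0758 had an adjusted p of 0.174 without and 0.0299 with the block. In ACHN TPM3 had 73.1, 58.3 and 80.7 FPKM with si-NUF2 and 64.8, 53.2 and 75.6 FPKM with si-NC. Each of the 3 pairs was higher with si-NUF2, and the log2 difference of 0.15 had an adjusted p of 0.957 without the block and 0.0764 with it. TPM3 has processed pseudogenes whose reads may be shared with it, of which TPM3P9 reached 2.16 FPKM and TPM3P6 reached 1.17 FPKM. An antisense gene that overlaps TPM1, AC079328.2, reached 2.27 FPKM.

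Summed over the 4 genes, tropomyosin transcripts stood at 137.4 ± 11.1 FPKM with si-NC and 200.3 ± 18.8 FPKM with si-NUF2 in 769-P (SD, n = 3). Of the increase of 62.9 FPKM between these means, TPM4 gave 53.1%, TPM1 18.0 FPKM, TPM3 8.78 FPKM and TPM2 2.71 FPKM. TPM4 went from 9.76% ± 0.15 of the sum to 23.3% ± 1.69. The sum of the other tropomyosins was 164.7, 142.7 and 153.0 FPKM with si-NUF2 and 135.4, 119.0 and 117.5 FPKM with si-NC, with an exact two-sided permutation p of 0.1, which is the smallest that 3 libraries against 3 can give (adjusted p = 0.25 over 10 such measures). In ACHN the sum over the 4 genes was 176.1 ± 6.25 FPKM with si-NC and 179.5 ± 3.68 FPKM with si-NUF2. There TPM4 was higher by 12.1 FPKM and TPM3 by 6.19 FPKM while the mean of TPM1 differed by -13.9 FPKM, and TPM4 went from 4.49% ± 0.98 to 11.1% ± 3.89 of the sum. The larger TPM4 value of ACHN si-NUF2 replicate 1 was 15.5% of the sum in that library, against 8.21% and 9.61% in the other libraries of the group.

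CALD1 (chr7:134744252-134970728, plus strand), whose product holds tropomyosin on the filament and inhibits the actin-activated ATPase of myosin, was a minor transcript in 769-P. It had 2.53, 1.84 and 2.33 FPKM with si-NUF2 and 1.76, 1.48 and 1.54 FPKM with si-NC there. The groups did not overlap, and the log2 difference of 0.46 ± 0.151 had an adjusted p of 0.102 without the block and 0.0249 with it. In ACHN CALD1 had 47.0, 44.8 and 63.0 FPKM with si-NUF2 and 55.3, 45.7 and 71.4 FPKM with si-NC. All 3 pairs were lower with si-NUF2, with log2 differences of -0.21, -0.021 and -0.16, and the adjusted p was 0.981 without and 0.16 with the block.

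TAGLN (chr11:117199321-117204782, plus strand) and TAGLN2 (chr1:159918107-159925732, minus strand) encode small calponin-like proteins that stabilise filaments, TAGLN being a marker of smooth muscle. TAGLN did not pass the filter in 769-P, where it stayed between 0.30 and 0.503 FPKM. In ACHN it had 1.03, 6.43 and 4.27 FPKM with si-NUF2 and 0.708, 4.68 and 3.33 FPKM with si-NC. Replicate 2 had 6.22 times the value of replicate 1 with si-NUF2 and 6.61 times with si-NC, so the spread between replicate numbers was far above the difference between the siRNAs. Within pairs, TAGLN was higher with si-NUF2 by 0.51, 0.46 and 0.37 on the log2 scale. Its log2 fold change of 0.45 had an SE of 0.887 and an adjusted p of 0.989 without the block, and an SE of 0.0718 and an adjusted p of 0.0276 with it. TAGLN2 was the most abundant member in both lines. It had 352.5, 343.6 and 355.1 FPKM with si-NUF2 and 328.3, 349.2 and 311.4 FPKM with si-NC for 769-P, and 235.9, 215.3 and 278.1 FPKM against 285.0, 243.6 and 298.9 FPKM in ACHN. The values overlapped in both lines and did not pass with or without the block, with log2 differences of 0.10 (95% interval -0.048 to 0.25) and -0.17 (95% interval -0.50 to 0.17).

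ACTN1 (chr14:68874143-68979440, minus strand) and ACTN4 (chr19:38647649-38731583, plus strand) encode proteins that crosslink actin filaments, ACTN1 mainly in stress fibres and adhesions and ACTN4 more broadly. ACTN1 had 28.7, 23.4 and 27.0 FPKM with si-NUF2 and 25.4, 21.1 and 20.9 FPKM with si-NC for 769-P, a log2 difference of 0.24 with an adjusted p of 0.226 without and 0.042 with the block. ACTN4 had 238.0, 223.6 and 209.3 FPKM with si-NUF2 and 287.2, 266.0 and 237.7 FPKM with si-NC, a log2 difference of -0.22 with an adjusted p of 0.166 without and 0.0154 with the block. Both genes overlapped between the groups, but they differed in opposite directions in each of the 3 pairs. As a share of their sum, ACTN1 made up 10.8%, 9.48% and 11.4% with si-NUF2 and 8.11%, 7.36% and 8.08% with si-NC. These shares did not overlap, with an exact two-sided permutation p of 0.1 (adjusted p = 0.25 over 10 measures). In ACHN the share was 29.4% ± 6.50 with si-NUF2 and 30.9% ± 8.30 with si-NC (SD, n = 3), with a permutation p of 0.6. There ACTN1 had 58.2, 50.9 and 60.0 FPKM with si-NUF2 against 72.8, 49.4 and 60.7 FPKM, and ACTN4 had 115.1, 181.8 and 124.1 FPKM against 124.8, 181.6 and 115.8 FPKM. Replicate 2 of ACHN had the most ACTN4 and the least ACTN1 under both siRNAs.

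MYL9 (chr20:36541484-36551447, plus strand) had 2.79, 1.75 and 3.91 FPKM with si-NUF2 and 2.80, 1.62 and 2.77 FPKM with si-NC for 769-P, and 22.4, 25.1 and 22.6 FPKM against 26.7, 26.0 and 21.3 FPKM in ACHN. The groups overlapped in both lines. The 95% intervals of the log2 difference were -0.55 to 0.96 (769-P) and -0.34 to 0.23 (ACHN) without the block, and that of 769-P was -0.095 to 0.50 with it.

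Over the members other than TPM4, 1 of the 8 tested passed in 769-P (TPM1, upward), where 9.98% of all genes tested did, and 6 of 8 passed with the replicate block (TPM1, TPM2, TPM3, CALD1 and ACTN1 upward, ACTN4 downward), where 27.5% of all genes did. In ACHN fitted alone, 0 of 9 passed, as did 0% of all genes by limma and by limma-voom on the recovered reads, although 1238 of 15116 genes had an unadjusted p under 0.05. In the fit of all 12 libraries 138 genes passed upward and 33 downward in ACHN, and again 0 of these members. With the block 2 of 9 passed there (TPM1 downward, TAGLN upward), against 12.2% of all genes. Values of si-NUF2 and si-NC did not overlap for 3 of these 9 genes in 769-P (TPM1, TPM3 and CALD1, all higher), where 33.3% of the genes tested did not overlap, and for 0 of 9 in ACHN, where 14.3% did not. The median log2 difference of the tested members was 0.22 (769-P) and -0.081 (ACHN), against -0.0090 and 0.0061 over all genes tested.

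**Figure D2:**
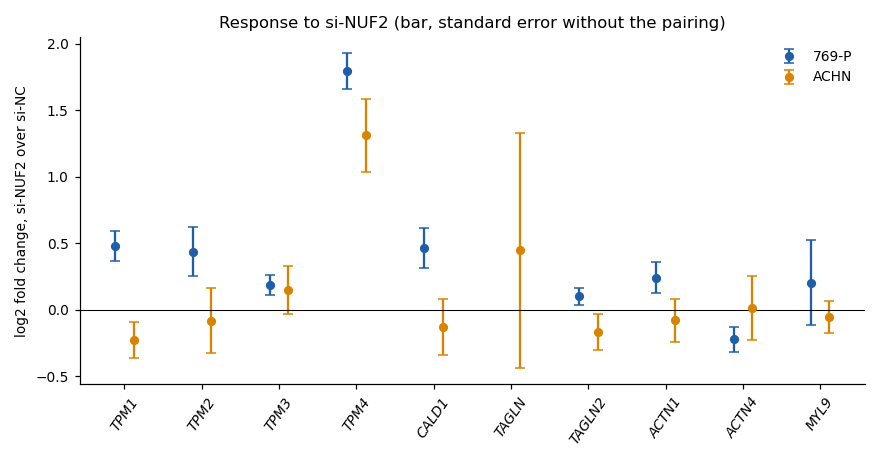
Log2 fold change of si-NUF2 over si-NC for each member in 769-P (blue) and ACHN (orange), with bars for the standard error of the fit without the replicate block. TPM4 stands at 1.80 and 1.31, TPM1 and CALD1 lie above 0 in 769-P and below 0 in ACHN, and TAGLN has no point in 769-P because it did not pass the filter.

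A fit over all 12 libraries, with an interaction term, asked whether the 2 lines responded differently. The difference between the 2 log2 changes (769-P minus ACHN) was 0.70 ± 0.177 for TPM1, 0.59 ± 0.263 for CALD1 and 0.51 ± 0.328 for TPM2. Without the block 0 of 9 members passed by limma or by limma-voom, as did 0% of all 16564 genes. Of these genes 776 had an unadjusted p under 0.05 by limma, no more than that threshold would give if no gene differed. With the block 2 of 9 passed, against 1.52% of all genes: TPM1 with an adjusted p of 0.0323 and CALD1 with an adjusted p of 0.0454, and TPM2 had 0.0787. For these 3 genes all 3 pairs of 769-P were higher with si-NUF2 and all 3 of ACHN were lower. In ACHN alone with the block TPM1 passed by limma, but TPM2 (adjusted p = 0.288) and CALD1 (adjusted p = 0.16) did not. TPM3 had the same sign in all 6 pairs, with a difference between lines of 0.027 (95% interval -0.42 to 0.47). For TPM4, on which no test was run, the difference was 0.48 ± 0.327, and it was 0.75 without ACHN si-NUF2 replicate 1 and 0.29 without ACHN si-NUF2 replicate 2.

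The starting levels of the members were then compared between 769-P and ACHN under si-NC. The choice of members did not rest on this comparison. The si-NC values of TPM4 were used in its choice within each line, so its call here rests on libraries already used. Of the 9 members that passed the filter in both lines 8 passed the test, 3 higher and 5 lower in 769-P. Of all 16564 genes tested 63.4% passed, so most genes differed between these lines. That share includes genes that passed the filter through 1 line alone. CALD1 was the farthest apart, at 1.60 ± 0.147 FPKM in 769-P and 57.5 ± 13.0 FPKM in ACHN (SD, n = 3), a log2 difference of -5.02 ± 0.186 (SE) with an adjusted p of 4.47e-09. MYL9 stood at 2.40 ± 0.671 and 24.7 ± 2.93 FPKM, with a log2 difference of -3.29 and an adjusted p of 1.69e-06. ACTN1 was at 22.5 ± 2.50 and 61.0 ± 11.7 FPKM (adjusted p = 1.12e-05) and TPM1 at 47.5 ± 5.73 and 90.2 ± 10.4 FPKM (adjusted p = 0.000113), both lower in 769-P. TPM2 (8.14 ± 1.91 and 13.5 ± 3.29 FPKM, adjusted p = 0.0261) was lower in 769-P as well. TAGLN stood at 0.408 ± 0.102 and 2.91 ± 2.02 FPKM, and since it passed the filter through ACHN alone its difference is given without a call. ACTN4 was higher in 769-P, at 263.6 ± 24.8 against 140.7 ± 35.7 FPKM (adjusted p = 0.000992), as were TPM4, at 13.4 ± 1.17 against 7.87 ± 1.54 FPKM (adjusted p = 0.00938), and TAGLN2, at 329.7 ± 18.9 against 275.8 ± 28.8 FPKM (adjusted p = 0.0265). TPM3 did not pass, at 68.3 ± 2.55 and 64.5 ± 11.2 FPKM (adjusted p = 0.401). The calls of TPM2 and TAGLN2 were lost with the replicate number as a block in the si-NC libraries alone (adjusted p = 0.0689 and 0.0978). In the same 6 libraries without the block both passed by limma (adjusted p = 0.0372 and 0.0481). This block joins equal numbers of different lines, and likeness of equal numbers was examined only within a line.

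By level under si-NC, the order in 769-P was TAGLN2, ACTN4, TPM3, TPM1, ACTN1, TPM4, TPM2, MYL9, CALD1 and TAGLN, in which only MYL9 and CALD1 were neighbours with overlapping values. In ACHN the order was TAGLN2, ACTN4, TPM1, TPM3, ACTN1, CALD1, MYL9, TPM2, TPM4 and TAGLN, and the neighbours TPM3 and ACTN1 overlapped, as did ACTN1 and CALD1. With si-NUF2, the mean of TPM4 in 769-P (46.8 FPKM) was above that of ACTN1 (26.4 FPKM), and in ACHN (19.96 FPKM) it was above that of TPM2 (12.6 FPKM). The ACHN values of TPM4 and TPM2 overlapped there, and in si-NUF2 replicate 2 TPM2 (15.6 FPKM) was above TPM4 (14.5 FPKM).

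**Figure D3:**
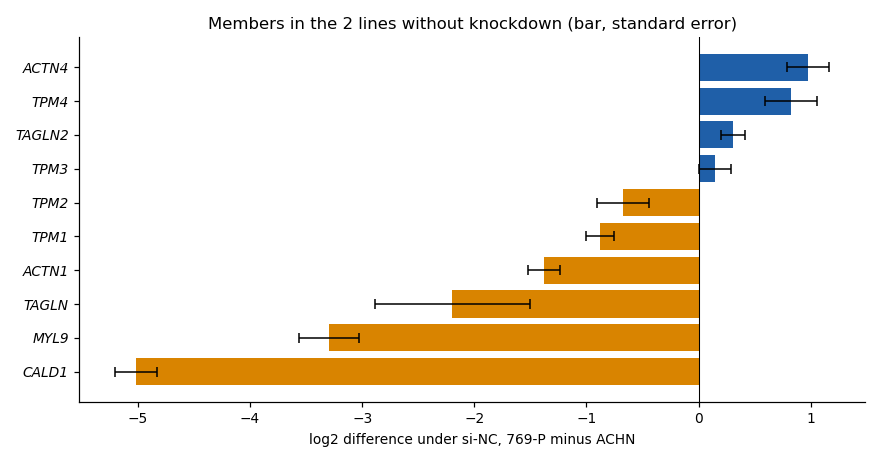
Log2 difference of each member between the lines under si-NC (769-P minus ACHN), with bars for the standard error. CALD1 at -5.02 and MYL9 at -3.29 are the farthest below 0, and ACTN4 at 0.98 and TPM4 at 0.82 the farthest above it.

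The genes whose pattern was most like that of TPM4 were found by Pearson r over the 12 libraries after the mean of each line was taken off, among 12929 other genes tested in both lines. Among the 5 nearest were RGS19 (r = 0.98), GNAI2 (r = 0.972), TM4SF1 (r = 0.971) and ICMT (r = 0.971). RGS19 and GNAI2 belong to G protein signalling, TM4SF1 is a tetraspanin-like membrane protein, and ICMT methylates prenylated proteins. TM4SF1 stood at 62.1 ± 2.95 and 163.7 ± 7.56 FPKM (si-NC and si-NUF2) in 769-P and at 30.7 ± 5.27 and 53.7 ± 17.4 FPKM in ACHN. Among the members, TPM3 was nearest to TPM4 with r = 0.63, at rank 1620, and ACTN4 was farthest with r = -0.44, at rank 10461. The 12 libraries share the siRNA contrast, so these values only describe likeness and carry no p.

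The other genes of contractile actin biology were taken from 9 lists of 74 genes, of which 53 were tested in 769-P and 57 in ACHN. In 769-P 6 of 53 passed, 5 upward and 1 downward, against 9.98% of all genes tested. With the block 18 of 53 passed there, 11 upward and 7 downward, against 27.5% of all genes. In ACHN 0 of 57 passed without the block, as did 0% of all genes. With the block 13 of 57 passed there, 7 upward and 6 downward, against 12.2% of all genes. The median log2 difference was -0.011 in 769-P and -0.044 in ACHN. These shares are to be read against the percentages of all genes above.

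MYLK, the myosin light chain kinase, phosphorylates the product of MYL9. It had 9.67, 6.35 and 8.81 FPKM with si-NUF2 and 4.87, 3.09 and 2.78 FPKM with si-NC for 769-P. It rose by a log2 fold change of 1.22 ± 0.242, with an adjusted p of 0.0274. In ACHN MYLK had 10.9, 17.8 and 14.2 FPKM against 7.44, 14.5 and 9.55 FPKM, with an adjusted p of 0.78 without and 0.025 with the block. The call in 769-P was lost when si-NUF2 replicate 1 or 3 or si-NC replicate 2 or 3 was left out, with adjusted p-values up to 0.0923.

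Of the crosslinkers and stress fibre adhesion proteins, 3 of 18 tested passed in 769-P, against 9.98% of all genes, and all 3 rose. SYNPO, the actin-bundling synaptopodin, had 3.60, 3.68 and 4.67 FPKM with si-NUF2 and 2.21, 1.80 and 1.26 FPKM with si-NC (log2 fold change 1.17 ± 0.209, adjusted p = 0.0202). In ACHN SYNPO was at 25.2 ± 4.22 and 27.0 ± 3.01 FPKM and did not pass. VASP, which promotes filament elongation, rose by 0.38 on the log2 scale in 769-P (adjusted p = 0.023), and TLN1, the integrin-binding talin, by 0.31 (adjusted p = 0.0337). Both calls were lost in the fit of all 12 libraries (adjusted p = 0.0713 for VASP and 0.102 for TLN1) and without any library of 769-P but si-NC replicate 1, and that of SYNPO without si-NUF2 replicate 2 or 3 or si-NC replicate 2. In ACHN their log2 differences were 0.14 and 0.16, which did not pass with or without the block. With the block 9 of 18 passed in 769-P, 6 upward and 3 downward, against 27.5% of all genes. In ACHN 6 of 21 passed with it, 2 upward and 4 downward, against 12.2% of all genes. FLNC, TGFB1I1, PDLIM4 and TAGLN3 were tested through ACHN alone, FLNC standing at 0.128 ± 0.0537 FPKM in 769-P and 47.9 ± 3.18 FPKM in ACHN under si-NC.

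Of SRF and its cofactors, 1 of 3 tested passed in 769-P, against 9.98% of all genes. MKL1, the actin-sensing coactivator of SRF, had 8.54, 7.58 and 9.03 FPKM with si-NUF2 and 6.76, 5.63 and 5.53 FPKM with si-NC, and rose by 0.49 on the log2 scale (adjusted p = 0.0402). This call was lost without any library of 769-P but si-NC replicate 1, with adjusted p-values up to 0.125. In ACHN MKL1 was at 7.29 ± 0.418 and 6.99 ± 0.612 FPKM, with an adjusted p of 0.965. SRF itself had 21.1, 20.1 and 20.6 FPKM with si-NUF2 and 24.0, 21.5 and 20.8 FPKM with si-NC for 769-P.

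None of the actins (3 tested), calponins and transgelin 3 (2 tested in 769-P and 3 in ACHN), myosin II chains (5 tested), actin turnover proteins (11 tested) or tropomodulins (1 tested) passed in either line without the block by limma. Of all genes tested 9.98% passed in 769-P and 0% in ACHN, so the ACHN part says nothing particular to these lists. The sarcomeric alpha-actinins were below the filter in both lines. With the block 7 of the 53 pathway genes tested in both lines passed in both, each in the same direction, as did 8.57% of all genes tested in both lines. They were named after their values were seen, and the 2 contrasts come from separate libraries. ACTB (cytoplasmic beta-actin), CNN2 (calponin 2), MYH9 (the heavy chain of non-muscle myosin IIA) and MYLK were upregulated, and CAPZA1 (a capping protein subunit), LIMA1 (EPLIN, which stabilises filaments) and PDLIM5 (a LIM protein of stress fibres) were downregulated. MYH9 went from 217.2 ± 37.2 to 286.5 ± 23.3 FPKM in 769-P and from 330.2 ± 52.5 to 406.7 ± 36.8 FPKM in ACHN (adjusted p = 0.018 and 0.0259 with the block). CAPZA1 went from 49.1 ± 3.92 to 39.1 ± 2.85 FPKM and from 35.2 ± 5.56 to 27.6 ± 2.33 FPKM (adjusted p = 0.0293 and 0.0357 with the block). None of the 57 pathway genes passed the test of a difference between the lines by limma, with or without the block, or by limma-voom without it. Without the block 0% of all genes passed by limma or limma-voom, so those fits say nothing particular to the pathway genes. With the block 1.52% of all genes passed.

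Between the lines under si-NC, 38 of the 53 pathway genes that passed the filter in both lines passed the test, 16 higher and 22 lower in 769-P. Of all genes tested, those that passed the filter through 1 line alone included, 63.4% passed. The 38 pathway genes included 9 lower and 6 higher of the 18 crosslinkers and adhesion proteins. They also included 2 lower and 7 higher of the 11 actin turnover proteins. MYLK stood at 3.58 ± 1.13 FPKM in 769-P and 10.5 ± 3.62 FPKM in ACHN (adjusted p = 0.00105).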

How the data were processed

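Total RNA of 12 libraries from 769-P and ACHN cells, 48 h after transfection with si-NUF2 or si-NC, was sequenced on an Illumina NovaSeq, and the authors filtered the reads with fastp. HISAT2 2.0.5, featureCounts 1.5.0-p3 and hg38 are named in the submitters' processing notes. The strand setting and the annotation are not given in the sources used here. The authors deposited FPKM, 1 value per gene and library, and called their own DEGs with DESeq2. Their test reported DEGs in both lines, also in ACHN, where limma on that line alone without the block called 0% of genes. With exon lengths of GENCODE release 29, 97.3% to 97.7% of low values were whole multiples of 1 read, within 0.05 reads. Reads recovered in this way gave 29245492 to 38866455 per library and served for depth and for 1 added alternative, limma-voom.

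FPKM were scaled by a trimmed mean of log ratios (30% of ratios and 5% of levels trimmed), and log2(FPKM + 0.1) was fitted with limma 3.58.1 in R 4.3.3 (eBayes with trend) for genes that reached 0.5 scaled FPKM in 3 or more libraries. Each line was fitted alone for si-NUF2 against si-NC, and all 12 libraries together for the interaction and for the lines under si-NC. P-values were adjusted by Benjamini-Hochberg over all genes tested, at 0.05. A fold change on this scale understates the change of low genes. The scripts were tested on simulated data. There the noise of each library was independent, with nothing shared by equal replicate numbers, so the pairing was not part of that check.

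Replicate numbers come from the labels. After group means were taken off, libraries of the same number correlated at 0.359, 0.271 and 0.19 (769-P) and at 0.648, 0.735 and 0.46 (ACHN). On these values the numbers were used to pair the libraries in the fits with the block. The main fits left the pairing out, since the study does not state it. All pairs of different numbers were below 0, which follows in part from taking off the group means and is not separate evidence. What a number stands for is not stated. No library was a copy of another, with a chi-square per gene of 12.9 or more between libraries of a group. Alternatives were other scalings, pseudocounts, no filter, a stricter threshold, the block, other samples in the fit and leaving out each replicate.

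The members and gene lists were chosen with earlier results of these data known. The rule for named genes took all members, NUF2, the 2 highest and 2 lowest log2 fold changes passing in 769-P of each list, and the 5 genes most like TPM4. Some genes that this rule names, and results of 1 gene list, are not reported here. Gene positions are in GENCODE 29 (GRCh38), and promoters are from RefSeq.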

Additional observations from a re-analysis of the deposited data

Results flagged for a closer look

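TPM1, TPM2 and CALD1 stood out because their 3 same-numbered pairs were all higher with si-NUF2 in 769-P and all lower in ACHN. The share of all genes with that pattern was not counted. Of these 3 genes only TPM1 passed in ACHN with the replicate block by limma (adjusted p = 0.034, against 0.288 for TPM2 and 0.16 for CALD1). The ACHN signs of TPM2 and CALD1 changed with 1 library left out. The adjusted p-values below come from the same libraries that showed the pattern. The difference between the log2 changes of the lines was 0.698 for TPM1, 0.513 for TPM2 and 0.586 for CALD1. By limma with the replicate block the interaction had an adjusted p of 0.0323 for TPM1, 0.0454 for CALD1 and 0.0787 for TPM2, and without the block 0.864, 1 and 1.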

How the results depend on the processing

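With the replicate block, among the members other than TPM4, those passing were 6 in place of 1 (769-P), 2 in place of 0 (ACHN) and 2 in place of 0 (difference between lines), and among the pathway genes 18 in place of 6 (769-P) and 13 in place of 0 (ACHN). Under si-NC the block with the 6 si-NC libraries alone left 7 of 10 members passing in place of 9 (TAGLN included, which passed the filter through ACHN alone). The block changed no other call of a member than those given in the report. In 769-P, 0 members passed with no filter on low values, in the fit of all 12 libraries or at an adjusted p under 0.01, and 2 with limma-voom on recovered reads, an alternative chosen after seeing the data. The pathway genes passing in 769-P were 2 with no filter, 3 in the fit of all 12 libraries and 1 at an adjusted p under 0.01. Leaving out 1 library gave 0 to 1 members and 1 to 8 pathway genes in 769-P, 0 to 0 of both in ACHN and for the difference between lines, and 6 to 9 members and 36 to 42 pathway genes between lines under si-NC. The number 6 came without ACHN si-NC replicate 2. The cause was not tested. Upper-quartile scaling moved the median of all genes between the lines from 0.024 to 0.17 on the log2 scale, gave 6317 genes higher and 4363 lower in 769-P in place of 5445 and 5063, and ended the call of TPM2 (adjusted p = 0.0796).

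Some differences that did not pass changed sign with 1 library left out. These log2 ranges were -0.062 to 0.50 for MYL9 in 769-P, and in ACHN -0.26 to 0.10 for TPM2, -0.29 to 0.039 for CALD1, -0.33 to 1.19 for TAGLN, -0.22 to 0.056 for ACTN1, -0.19 to 0.21 for ACTN4 and -0.16 to 0.0055 for MYL9. For the difference between lines they were -0.094 to 0.17 for TPM3, -1.07 to 0.45 for TAGLN and -0.013 to 0.55 for MYL9. ACTN4 in ACHN was also at -0.0051 with the FPKM as deposited and at -0.012 with limma-voom. TPM4 stayed between 1.67 and 1.92 (769-P) and between 1.04 and 1.52 (ACHN) over all alternatives.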
